A study of Mus musculus with 4 samples.

Results

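Keratinocyte mimetic medullary thymic epithelial cells (mTECs) are cells of the thymic medulla that carry genes of the outer skin. They were sought in droplet libraries of thymic epithelial cells (TECs) from 4 conditions. Cells were kept when they had 200 genes or more and 25% or less of their unique molecular identifiers (UMIs, counted RNA molecules) on mitochondrial genes. A cell was a member when at least 5 of the 10 epidermal genes Krt10, Krt80, Krt77, Krt1, Spink5, Ivl, Grhl1, Krtdap, Sbsn and Calm4 had a UMI, Aire had none, and Ccl21a stayed under 100 UMIs per 10000. The rule found 223 members among 28055 cells. Members were thus chosen by the measured UMIs of these 10 genes, of Aire and of Ccl21a, and these levels are described below without a test.

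TECs (EPCAM+, CD45-, TER119-) came from the thymus of C57BL/6 mice 6 weeks of age. Wild-type mice (WT) and mice with a germline deficiency of Cd40 (CD40KO) received 5 mg/kg of a neutralizing antibody to RANKL or control IgG under the skin at 4 weeks of age, 2 weeks before the analysis. The 4 conditions were WT-Control, WT-RANKL Ab, CD40KO-Control and CD40KO-RANKL Ab, each with 1 library pooled from 3 mice. The wild-type mice were female. With no replicate library, differences between conditions have no test, and the 95% intervals given with them cover counting error only.

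Epidermis renews from basal cells that leave the basement membrane, exchange the keratins Krt5 and Krt14 for Krt1 and Krt10 in the spinous layer, and then fill with filaggrin, loricrin and small proline-rich proteins that transglutaminases cross-link into the cornified envelope. In the thymus, mTECs can take on programs of peripheral cell types such as keratinocytes, tuft cells, microfold cells or gut and liver epithelium, many of them after an Aire-expressing stage, and are called mimetic cells for this reason. RANK and CD40 are receptors of the tumour necrosis factor family that drive the maturation of mTECs.

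After the filters, 10218, 7164, 8591 and 2082 cells remained in WT-Control, WT-RANKL Ab, CD40KO-Control and CD40KO-RANKL Ab. The median UMI count of a cell lay between 6086 and 7621.5 per library, and that of a member between 5475.5 and 8554.5. Cd40 was counted at 110, 28.8, 5.75 and 4.75 UMIs per 1000000 (CPM) over all cells of these libraries, so it was low in both CD40KO libraries. CD40KO-Control and CD40KO-RANKL Ab shared 205 cell barcodes, against 17 to 116 for the other pairs of libraries, and no barcode of a member was shared. Cells with at least 3 of 8 T cell markers made up 1.38%, 5.97%, 8.95% and 15.1% of the cells.

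Members carried markers of other TEC classes too. At least 3 of 12 enterohepatic markers were detected in 51 of the 223 members (22.9%, against 12.4% of all other cells). At least 3 of 8 microfold markers were detected in 38 (17% against 10.9%) and at least 3 of 8 tuft markers in 20 (8.97% against 5.52%). Markers of cortical TECs (cTECs), at least 3 of 6, were detected in 18 members (8.07% against 25.1%). T cell markers, at least 3 of 8, were detected in 1 member (0.448% against 5.93%). At least 3 of 6 Ccl21a mTEC markers (Ccl21a, Krt5, Itga6, Mgp, Gpx3 and Apoe) were detected in 88 (39.5% against 62.5%), and the rule limited Ccl21a. Neuroendocrine, ciliated and muscle markers, at least 3 of 8, were detected in 0.897%, 0.448% and 0% of members, against 3.41%, 0.905% and 0.363%. For cTEC, T cell, Ccl21a mTEC, neuroendocrine, ciliated and muscle markers the share was thus lower in members than in other cells. For other non-epithelial markers it was 0.448% against 0.079%. In WT-RANKL Ab, 26.5% of the members had at least 3 tuft markers, against 5.32% in WT-Control and 6.38% in CD40KO-Control. The summed level of the tuft markers in members was 430.5 CPM in WT-Control, 1184 CPM in WT-RANKL Ab and 467.6 CPM in CD40KO-Control. At least 3 enterohepatic markers were detected in 20.2%, 11.8% and 29.8% of the members of WT-Control, WT-RANKL Ab and CD40KO-Control, and their summed level was 5161, 7831 and 4552 CPM. Reg3g, an antimicrobial lectin of gut, made up 7280 CPM of the sum in WT-RANKL Ab, with 63.8% of its UMIs in 1 cell. At least 3 microfold markers were detected in 20.2%, 14.7% and 14.9% of the members, at a summed level of 1190, 540.4 and 1793 CPM. No gene of the tuft, enterohepatic and microfold lists was at 0 in members. Doublets were not called, and their part in these cells was not tested. None of the tuft, enterohepatic, microfold, cTEC and T cell lists reached 3 markers in 142 members. These 142 could still carry fewer than 3 markers of such a list, and the other lists were not used to choose them.

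Members were fewer after RANKL neutralization, and 1 member was left when Cd40 deficiency and RANKL neutralization were combined. They made up 0.920% of the cells in WT-Control (94 of 10218, exact Clopper-Pearson interval 0.744% to 1.125%), 0.475% in WT-RANKL Ab (34 of 7164, 0.329% to 0.663%), 1.094% in CD40KO-Control (94 of 8591, 0.885% to 1.337%) and 0.0480% in CD40KO-RANKL Ab (1 of 2082, 0.00122% to 0.267%). Relative to WT-Control, the share was 0.516 times as large in WT-RANKL Ab (exact conditional interval 0.338 to 0.771), 1.189 times in CD40KO-Control (0.884 to 1.6) and 0.0522 times in CD40KO-RANKL Ab (0.00131 to 0.298). The 3 ratios share the WT-Control library. The interval for CD40KO-Control included a ratio of 1, and the other intervals lay below it. Without the cells that carried 3 or more T cell markers, the ratios were 0.541, 1.275 and 0.0606.

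Aire-positive cells (at least 2 Aire UMIs) had a lower share in WT-RANKL Ab and in CD40KO-Control. Aire, a transcription regulator that lets mTECs transcribe tissue-restricted genes, marked 22.58%, 2.903%, 14.93% and 0.2402% of the cells in WT-Control, WT-RANKL Ab, CD40KO-Control and CD40KO-RANKL Ab. The Aire-positive share in WT-RANKL Ab was 0.129 times that of WT-Control (0.111 to 0.148), so members per 100 Aire-positive cells were 4.08 in WT-Control and 16.35 in WT-RANKL Ab, a ratio of 4.01 (exact conditional interval 2.56 to 6.17). In CD40KO-Control there were 7.33 members per 100 Aire-positive cells, 1.80 times as many as in WT-Control (1.33 to 2.44). Set against other mimetic classes, the ratios differed by class. Members per 100 enterohepatic cells were 26.93, 36.17 and 36.15 in WT-Control, WT-RANKL Ab and CD40KO-Control, with ratios to WT-Control of 1.34 (0.825 to 2.15) and 1.34 (0.954 to 1.89). Per 100 microfold cells there were 46.31, 35.79 and 65.73 members, with ratios of 0.773 (0.471 to 1.25) and 1.42 (0.977 to 2.06). Both pairs of intervals, against enterohepatic and microfold cells, included 1. Per 100 tuft cells, which had at least 3 tuft markers and were no members, there were 17.09, 5.354 and 32.19 members, with ratios of 0.313 (0.202 to 0.477) and 1.88 (1.35 to 2.63). The tuft share was 1.655 times that of WT-Control in WT-RANKL Ab (1.475 to 1.857) and 0.639 times in CD40KO-Control (0.553 to 0.737). The Aire-positive, enterohepatic and microfold classes were gated under the same Ccl21a limit, the last 2 of them on at least 3 of their own markers with Aire at 0, and CD40KO-RANKL Ab held 5 cells of each of the 3 classes.

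**Figure D1:**
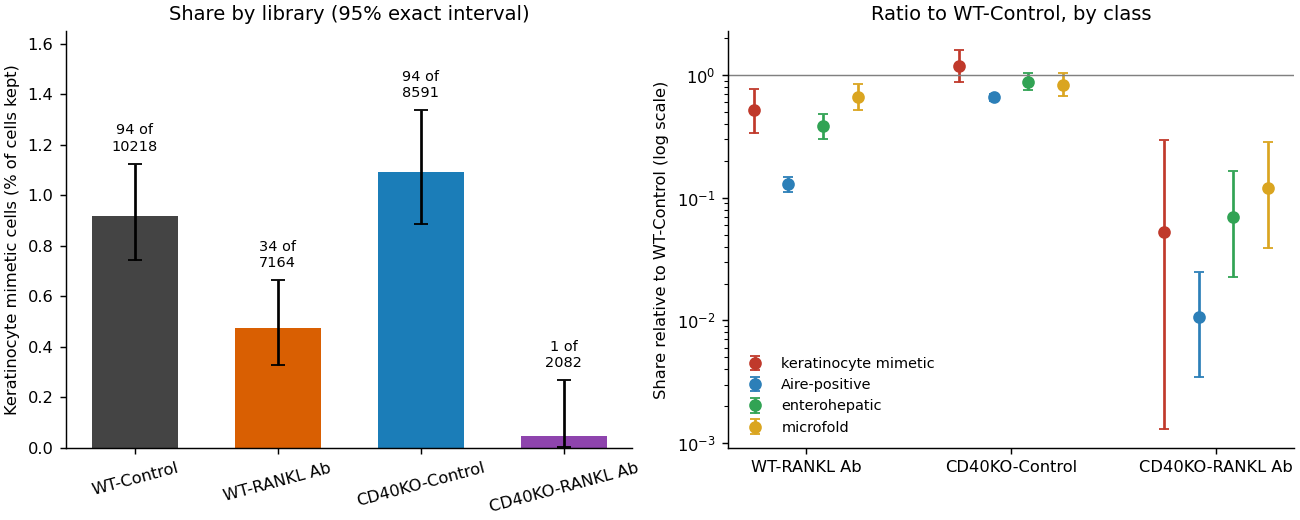
Left, members as a percentage of all cells in each of the 4 libraries with exact 95% intervals. Right, the share of 4 cell classes relative to WT-Control on a log scale with exact conditional intervals. Members stood at 0.516, 1.189 and 0.0522 times the WT-Control share, and Aire-positive cells at 0.129 times in WT-RANKL Ab.

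The rule genes are genes of the spinous and granular layers. Krtdap, a secreted protein of differentiating keratinocytes, had 8577 CPM in the members of WT-Control, 4984 CPM in WT-RANKL Ab and 6844 CPM in CD40KO-Control. Krt10, the type I keratin of suprabasal epidermis, had 2347, 1363 and 3203 CPM in the same order. Sbsn, a secreted protein encoded beside Krtdap on chromosome 7, had 1982, 1143 and 1853 CPM. Both secreted proteins had their lowest level in WT-RANKL Ab, as did Krt10. Calm4, an epidermal calmodulin-like protein, had 2075, 2630 and 2482 CPM, and Spink5, the inhibitor of epidermal kallikreins, had 1189, 2007 and 1546 CPM. Spink5 was thus lowest in WT-Control. Each cell was also thinned to 2000 UMIs, which kept 196 members, 1425 tuft cells and 1149 T cells. Their median depths before thinning were 6028, 6703.5 and 9779 UMIs. Krtdap then had a UMI in 71.9% of the members, 3.79% of the tuft cells and 2.18% of the T cells, and Calm4 in 62.2%, 1.12% and 0%. Before thinning, both genes were detected in more members, 84.3% and 76.2%. Krtdap and Calm4 are rule genes, and members were chosen before thinning, so high shares in members follow from the rule. The part of free RNA in these levels was not tested.

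The threshold cut through a continuous range of cells. Of the cells that met the limits on Aire and Ccl21a, 99 had 4 rule genes and stayed outside, and 64, 59, 50, 29, 17 and 4 had 5, 6, 7, 8, 9 and 10 of them. Krtdap stood at 558.8 CPM in cells with 4 rule genes and at 1896 CPM in those with 5, and Krt10 at 509.7 and 1220 CPM. The spinous genes Krt1, Krt10 or Krt77 and the granular genes Flg, Lor or Hrnr were detected together in 113 members (50.7%). Spinous genes alone were detected in 98 members (43.9%) and granular genes alone in 9. Krt1, Krt10 and Krt77 are rule genes and Flg, Lor and Hrnr are not, so the rule itself favoured spinous genes. Detection also depends on the depth of a cell, and these counts were taken without thinning. Krt10 was detected with Krt1 in 93 members and with Krt77 in 112, and both partners accompanied it in 54.

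Members were then compared with Aire-positive, enterohepatic and microfold cells by edgeR's quasi-likelihood test on UMIs summed per library and class, with the library as a block. WT-Control, WT-RANKL Ab and CD40KO-Control entered the fit, so that 3 different conditions served as blocks. The classes were set by genes of the same cells, and genes that vary with the rule genes or with Aire had to differ. The test therefore weighs the size of a difference against its spread over libraries and does not show that a class exists. Of 10484 genes tested, 19.5% were higher and 20% lower in members than in Aire-positive cells at a Benjamini-Hochberg adjusted p under 0.05, 8.42% were higher and 6.77% lower than in enterohepatic cells, and 8.88% were higher and 6.58% lower than in microfold cells. The members of WT-RANKL Ab summed to 290505 UMIs, those of WT-Control to 747893 and those of CD40KO-Control to 564549. Microfold cells of CD40KO-Control had a median of 2332 UMIs a cell. Without WT-Control the counts against Aire-positive cells were 954 higher and 885 lower in place of 2048 and 2100.

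Precursors of the cornified envelope were higher in members than in each of the 3 classes. Of 46 listed genes, 39 had a UMI in members and 18 passed the filter on low counts. Of these, 10 were higher than in Aire-positive cells, 12 than in enterohepatic cells and 11 than in microfold cells, and none was lower. Their median log2 fold changes were 2.34, 2.93 and 3.19 (2.87 in the last case with genes absent from microfold cells at the bound that a floor of 3 counts gives), beside -0.0521, -0.032 and -0.0206 over all genes tested. Sprr1a, a small proline-rich precursor, had 2359, 3112 and 1571 CPM in the members of WT-Control, WT-RANKL Ab and CD40KO-Control and 246.7, 129.8 and 319 CPM in Aire-positive cells. The summed level was higher in members in each library, although 118 of the 223 members carried a UMI, and the log2 fold change was 3.22 (SE 0.33, edgeR adjusted p = 2.99e-05). Flg, filaggrin, which bundles keratin filaments, had 417.2, 413.1 and 628.8 CPM in members against 16.98, 1.629 and 22.58 CPM in Aire-positive cells (log2 fold change 5.07, SE 0.44, edgeR adjusted p = 9.37e-06). Its levels in members lay between 413.1 and 628.8 CPM, but 81 of the 223 members carried a UMI. Of its UMIs in members, 1 cell held 38.3% in WT-RANKL Ab and 1 cell held 31.1% in WT-Control. Cnfn, cornifelin, had 615.1, 375.2 and 561.5 CPM in members and was higher than in Aire-positive cells by a log2 fold change of 3.43. Rptn, repetin, had 307.5, 430.3 and 720.9 CPM (log2 fold change 4.66), with the highest value in CD40KO-Control. Lor, loricrin, had 159.1, 120.5 and 189.5 CPM, in 25 members, of which 1 held 25.7% of its UMIs. In WT-RANKL Ab, Lor was detected in 2 members, of which 1 held 97.1% of its UMIs there. The Sprr2 and Lce genes are families of near-identical copies whose reads the counting could have split, so their single values are uncertain. Of the 45 genes of the list in the files, 27 had too few UMIs to be tested.

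The genes of the cornified envelope lie together in the genome, and some of the windows before their start sites hold short motifs. On mm10, 44 of the 46 genes of this list and Ivl that were found in the annotation, Flg and Sprr1a included, lie on chromosome 3 between 92080271 and 93471980, and Sbsn and Krtdap lie on chromosome 7 between 30751471 and 30791097. Windows of the 250 bases before the RefSeq start sites (GRCm38.p6) were searched. The AP-1 motif TGANTCA, read on both strands, was present in 34.9% of the windows of the cornified list (15 of 43). Over all 27025 windows it was present in 6.87%. TATAAA, read on the gene's strand, was present in 37.2% (16 of 43) and 8.12%. The C/EBP motif TTGCNNAA was present in 11.6% and 9.55%, and the Grainyhead-like motif AACCNGTT in 2.33% and 1.71%. Genes of 1 family share sequence, so these windows are not independent, and a match is a description of letters and not a binding site. The 160 bases before the start are shown for Krtdap and Sbsn, which are neighbouring rule genes, and for Sprr1a, a precursor detected in 118 members. In this order they are chr7:30787745-30787904 (plus strand), chr7:30751311-30751470 (plus strand) and chr3:92485882-92486041 (minus strand) of GRCm38.p6. Capitals mark AP-1, TATAAA and C/EBP matches, all outside the annotated gene according to the RefSeq start.
Krtdap: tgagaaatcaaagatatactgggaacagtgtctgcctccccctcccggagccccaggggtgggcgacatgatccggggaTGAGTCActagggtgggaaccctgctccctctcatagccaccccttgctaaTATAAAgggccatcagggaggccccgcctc
Sbsn: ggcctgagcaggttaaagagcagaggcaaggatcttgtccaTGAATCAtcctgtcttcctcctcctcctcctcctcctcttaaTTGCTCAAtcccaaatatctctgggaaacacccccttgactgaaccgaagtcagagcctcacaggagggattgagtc
Sprr1a: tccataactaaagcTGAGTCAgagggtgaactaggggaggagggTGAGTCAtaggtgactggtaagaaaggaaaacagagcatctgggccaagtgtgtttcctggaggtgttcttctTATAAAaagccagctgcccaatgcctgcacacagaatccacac

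In Krtdap the AP-1 match lies 81 to 75 bases before the start and TATAAA 30 to 25 bases before it. In Sbsn the AP-1 match lies 119 to 113 bases and the C/EBP match 77 to 70 bases before the start. Sprr1a holds AP-1 matches 146 to 140 and 116 to 110 bases and TATAAA 43 to 38 bases before its start.

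Genes that cross-link and process the envelope were higher as a group. Of 28 listed genes 21 were tested, and 15 were higher than in Aire-positive cells, 13 than in enterohepatic cells and 15 than in microfold cells, with none lower and median log2 fold changes of 2.17, 2.35 and 3.07. Cst6, cystatin M/E, which restrains the proteases that activate transglutaminase, had 2803 CPM in the members of WT-Control, 5301 in WT-RANKL Ab and 6727 in CD40KO-Control, against 459.1, 247 and 288.3 CPM in Aire-positive cells (log2 fold change 3.86, SE 0.42, edgeR adjusted p = 4.94e-05). Serpinb2, a serine protease inhibitor, had 588.3, 506 and 648.3 CPM against 63.15, 26.06 and 46.45 CPM (3.56, SE 0.19, edgeR adjusted p = 8.22e-07). The levels of Serpinb2 varied little between libraries, whereas those of Cst6 differed more than 2-fold. Asprv1, the protease that trims profilaggrin, had 818.3, 399.3 and 1093 CPM and was higher than in Aire-positive cells by a log2 fold change of 3.39. Klk7, a kallikrein that sheds corneocytes, had 282.1, 110.2 and 363.1 CPM, and its call against microfold cells was lost without CD40KO-Control (edgeR adjusted p = 0.0687). Tgm1, the transglutaminase of the envelope, was detected in 29 members at 30.75, 10.33 and 14.17 CPM, against 1.566, 0.543 and 1.364 CPM in Aire-positive cells (log2 fold change 3.83).

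Enzymes of the barrier lipids followed. Of 29 listed genes 22 were tested, and 17 were higher than in Aire-positive cells, 14 than in enterohepatic cells and 17 than in microfold cells, while 0, 2 and 1 were lower. Elovl4, which builds the very long chains of epidermal ceramides, had 159.1, 161.8 and 373.7 CPM in members and 13.71, 16.83 and 19.1 CPM in Aire-positive cells (log2 fold change 3.62, SE 0.26, edgeR adjusted p = 3.26e-06). Lipm, an epidermal lipase, had 108.3, 99.83 and 118.7 CPM against 4.105, 0 and 2.88 CPM (log2 fold change 5.13). Abca12, the lipid carrier of lamellar granules, had 18.72, 13.77 and 19.48 CPM in 23 members and was higher than in each class. These 3 genes stood above Aire-positive cells in every library. Alox12e, an epidermal lipoxygenase, had 510.8, 299.5 and 428.7 CPM in members and 363.1, 373.6 and 313.4 CPM in Aire-positive cells, and that comparison did not pass the test (edgeR adjusted p = 0.908). The genes that were lower than in enterohepatic cells were Degs1 and Smpd3, which act on ceramides.

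Desmosomes, which tie keratin filaments of neighbouring cells together, were also higher in members. Of 23 listed genes of desmosomes and adhesion 22 were tested, and 16, 15 and 14 were higher than in Aire-positive, enterohepatic and microfold cells, while 1, 3 and 2 were lower. Dsp, desmoplakin, had 950.7, 1015 and 1291 CPM in members and 75.5, 107 and 113 CPM in Aire-positive cells (log2 fold change 3.31, SE 0.16, edgeR adjusted p = 4.42e-07). Perp, a desmosomal membrane protein, had 1705, 1559 and 1731 CPM against 87.29, 172.7 and 99.96 CPM (3.69, SE 0.23, edgeR adjusted p = 1.58e-06). Members of all 3 libraries lay above the other classes for both genes. Jup, plakoglobin, and Pkp1, plakophilin, were higher than in Aire-positive cells by log2 fold changes of 2.86 and 2.18. Dsc1, the desmocollin of upper epidermis, had 14.71, 34.42 and 40.74 CPM in 29 members and at most 1.352 CPM in any library of the other classes. Cdsn, corneodesmosin, had 49.47, 17.21 and 77.94 CPM (log2 fold change 3.39 against Aire-positive cells). Dsg2, the desmoglein of simple epithelia, went the other way. It had 61.51, 75.73 and 53.14 CPM in members against 89, 153.1 and 102.2 CPM in Aire-positive cells, a log2 fold change of -0.976 (SE 0.17, edgeR adjusted p = 0.00124). Cldn7, a claudin of simple epithelia, was lower than in enterohepatic cells (log2 fold change -1.68) and microfold cells (-1.02), the second a call lost without CD40KO-Control (edgeR adjusted p = 0.0675).

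Among keratins outside the rule, more were higher than lower in members, and they did not split cleanly between stratified and simple epithelium. Of 19 listed keratins 18 were tested, and 10, 9 and 10 were higher than in Aire-positive, enterohepatic and microfold cells, while 3, 2 and 1 were lower. Krt4, Krt20 and Krt24 were the 3 lower than in Aire-positive cells, and Krt19 was among the 10 higher. Krt17, a keratin of skin appendages and stressed epidermis, was detected in 213 members at 7686, 8279 and 6490 CPM, against 1877, 3284 and 1799 CPM in Aire-positive cells (log2 fold change 1.56, SE 0.23, edgeR adjusted p = 0.000372). Krt16, which is induced with it in wounded skin, had 715.3, 664.4 and 1137 CPM and a log2 fold change of 4.57 against Aire-positive cells. Krt79, a keratin of hair follicle and gland ducts, had 537.5, 502.6 and 347.2 CPM (log2 fold change 4.07). All 3 were well above the other classes in each library. Krt5, the keratin of basal cells, had 870.4, 1642 and 620 CPM in members against 78.35, 154.2 and 70.7 CPM in Aire-positive cells (3.18, SE 0.34, edgeR adjusted p = 4.24e-05). Its partner Krt14 had 496.1, 526.7 and 478.3 CPM and was also called higher (log2 fold change 0.72). That call was lost without WT-Control (edgeR adjusted p = 0.0564). It was also lost in the 142 members with fewer than 3 markers of each of the tuft, enterohepatic, microfold, cTEC and T cell lists (0.861). Krt8 and Krt18, the keratins of simple epithelia, had 1695, 1215 and 1148 CPM and 1789, 1429 and 891 CPM, with edgeR adjusted p = 0.056 and 0.559 against Aire-positive cells. Krt20, a gut keratin, was lower than in each of the 3 classes, by a log2 fold change of -2.27 against microfold cells.

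**Figure D2:**
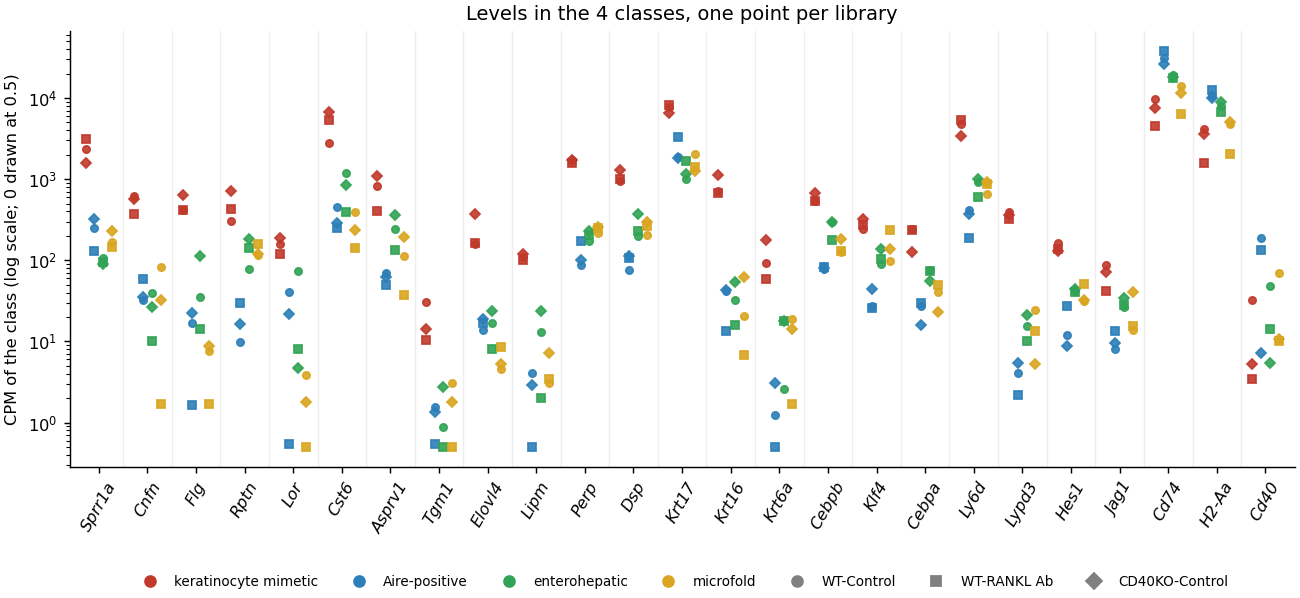
Levels of 25 genes in CPM on a log scale, 1 point per library (circles WT-Control, squares WT-RANKL Ab, diamonds CD40KO-Control) and 1 colour per class, with 0 drawn at 0.5. Members of all 3 libraries lay above the other classes for Sprr1a, Dsp and Perp, and below Aire-positive cells for Cd74 and H2-Aa.

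Transcription factors of epidermal differentiation were higher than in Aire-positive cells in 19 of 27 tested genes (31 listed), with 1 lower (Maf), and in 12 and 15 of 27 against enterohepatic and microfold cells. Cebpb, which acts in suprabasal keratinocytes, was detected in 202 members at 533.5, 540.4 and 669.6 CPM, against 77.17, 81.99 and 80.25 CPM in Aire-positive cells (log2 fold change 2.69, SE 0.19, edgeR adjusted p = 2.7e-06). Klf4, which is needed for the skin barrier, had 244.7, 271.9 and 322.4 CPM (2.94, SE 0.25, edgeR adjusted p = 8.34e-06), and Cebpa had 243.4, 237.5 and 125.8 CPM (log2 fold change 2.91). These 3 genes were above Aire-positive cells in every library, and Cebpa was lowest in CD40KO-Control. Trp63, the regulator of stratified epithelia, had 92.26, 61.96 and 111.6 CPM in members (log2 fold change 1.77 against Aire-positive cells), and Zfp750, a target of it that acts in terminal differentiation, had 98.94, 75.73 and 102.7 CPM (1.96). Klf5 was higher than in Aire-positive cells (2.95), but its 143.1, 123.9 and 141.7 CPM in members compared with 123.6, 150.5 and 117.6 CPM in enterohepatic cells (edgeR adjusted p = 0.628). Elf3, a factor of gut epithelium, was higher than in Aire-positive cells (1.27) and lower than in microfold cells (-0.95).

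Of the Notch pathway, which starts suprabasal differentiation in skin, 10 of 12 listed genes were tested, and Hes1, Jag1, Notch1, Notch2 and Notch3 were higher than in Aire-positive cells while the ligand Dll4 was lower. Hes1, a target of Notch, had 163.1, 137.7 and 129.3 CPM in members against 11.93, 27.15 and 8.791 CPM (log2 fold change 3.25, SE 0.31, edgeR adjusted p = 1.85e-05). The ligand Jag1 had 86.91, 41.31 and 72.62 CPM (2.73) and the receptor Notch3 14.71, 30.98 and 23.03 CPM (3.56). The calls of Notch1 and Notch2 against Aire-positive cells were lost without WT-Control (edgeR adjusted p = 0.0761 and 0.262), and that of Notch2 also without CD40KO-Control (0.0766). Against enterohepatic cells the calls of Hes1, Jag1, Notch1, Notch2 and Notch3 were each lost when WT-Control was left out. Of 11 listed genes of basal cells, by which they hold to the basement membrane, 10 were tested. Cd44 was higher and Itga6 lower than in Aire-positive cells, and Col17a1, Dst and Itga3 were lower than in enterohepatic cells, and Dst lower than in microfold cells. The calls of Dst were lost without WT-Control (edgeR adjusted p = 0.11 against enterohepatic and 0.0711 against microfold cells), and with tuft-marker cells left out of these classes its log2 fold changes were -0.60 (0.222) and -0.15 (0.833). Itga6 had 60.17, 75.73 and 93.88 CPM in members against 89.07, 103.2 and 168.4 CPM in Aire-positive cells (log2 fold change -0.80), a call lost without WT-Control (edgeR adjusted p = 0.0569). Of 6 cell cycle genes none passed the filter on low counts, and they summed to 8.023, 3.442 and 42.51 CPM in members.

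Surface proteins and cytokines of epidermis were higher than in Aire-positive cells in 9 of 14 tested genes (20 listed), with 2 lower, and in 8 and 10 of 14 against enterohepatic and microfold cells, with 0 and 1 lower. Ly6d, a marker of stratified epithelium, was detected in 209 members at 4749, 5422 and 3428 CPM, against 410.4, 185.7 and 369 CPM in Aire-positive cells (log2 fold change 3.7, SE 0.3, edgeR adjusted p = 7.01e-06). Lypd3, which belongs to the same protein family, had 387.8, 320.1 and 361.4 CPM against 4.036, 2.172 and 5.456 CPM (6.3, SE 0.32, edgeR adjusted p = 5.09e-07). Both were above all 3 classes in every library. Il1f6, which encodes interleukin-36 alpha, had 220.6, 165.2 and 579.2 CPM in members (log2 fold change 4.52), and Il1f5, which encodes the antagonist of the same receptor, had 77.55, 99.83 and 125.8 CPM (3.58). Lypd5 had 37.44, 34.42 and 42.51 CPM in members and no UMI in microfold cells, which makes it at least 31.8-fold higher against a floor of 3 counts over the microfold cells. S100a14 differed by class. Its 936, 568 and 554.4 CPM in members were below the 1603, 1587 and 1482 CPM of Aire-positive cells (log2 fold change -1.42) and were called higher than in enterohepatic (1.05) and microfold cells (1.1). Both of the latter calls were lost without CD40KO-Control (edgeR adjusted p = 0.0579 and 0.0694), the first also without WT-Control (0.0767), and the second with tuft-marker cells left out of the microfold class (log2 fold change 0.41, 0.159). S100a8 was also lower than in Aire-positive cells, and that call was lost without WT-Control (edgeR adjusted p = 0.0982).

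**Figure D3:**
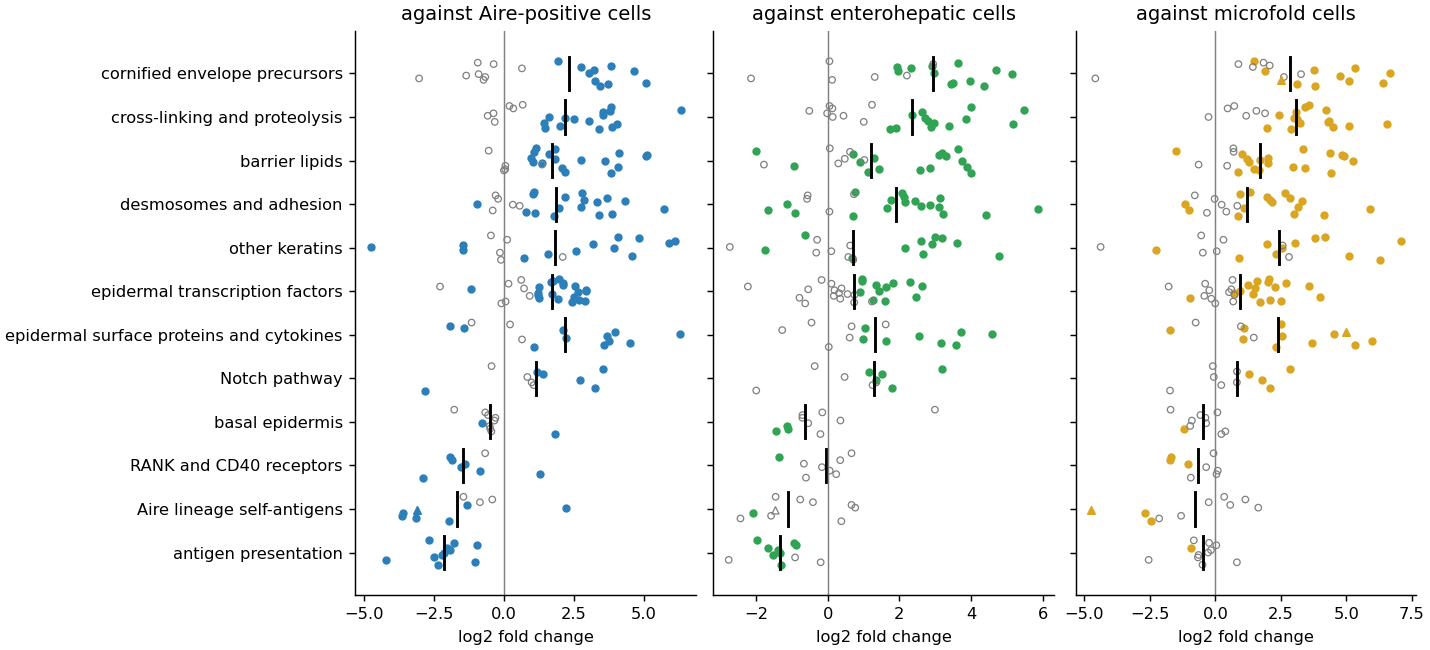
Log2 fold changes of the genes of each list in members against Aire-positive, enterohepatic and microfold cells. Filled points passed an adjusted p of 0.05, grey points did not, triangles are bounds of genes with no UMI in 1 class, and black lines are medians. The cornified list had medians of 2.34, 2.93 and 2.87, and the antigen presentation list of -2.15, -1.34 and -0.49.

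Antigen presentation by MHC class II was lower in members. All 11 listed genes were lower than in Aire-positive cells, 8 were lower than in enterohepatic cells, and of the 11 only H2-DMa was lower than in microfold cells, with median log2 fold changes of -2.15, -1.34 and -0.49. Cd74, the invariant chain, had 9731, 4513 and 7413 CPM in members against 30888, 37850 and 25935 CPM in Aire-positive cells (-2.37, SE 0.29, edgeR adjusted p = 0.000102). H2-Aa had 4091, 1580 and 3614 CPM against 10777, 12670 and 10028 CPM (-2.15). Members were lowest in WT-RANKL Ab for both genes and below Aire-positive cells in each library. Against enterohepatic cells the calls of Cd74 and H2-Aa were lost without WT-Control (edgeR adjusted p = 0.0558 and 0.0683), and without CD40KO-Control (0.0655 and 0.0744). H2-Ab1 and H2-Oa lost the call without CD40KO-Control (0.0853 and 0.12), H2-DMb1 without WT-Control (0.0866) and H2-Eb1 without CD40KO-Control (0.139) and without WT-Control (0.0971), so that 6 of the 8 genes lost the call in at least 1 of these fits. Ciita, the regulator of these genes, had 44.12, 37.87 and 26.57 CPM in members against 165.5, 246.5 and 152.5 CPM in Aire-positive cells (-2.51, SE 0.33, edgeR adjusted p = 0.000183).

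Receptors and signal proteins of the RANK and CD40 pathways were lower than in Aire-positive cells in 6 of 8 genes, beside 20% of all genes tested. Among the 8, 1 was higher (Ltbr, a call lost without WT-Control at an edgeR adjusted p of 0.465). Against enterohepatic cells only Traf1 was lower, and against microfold cells Tnfrsf11a, Tnfrsf11b and Traf1 were. Each of these calls was lost when a library was left out. The median log2 fold changes against the 3 classes were -1.46, -0.0534 and -0.644. Tnfrsf11a, which encodes RANK, had 54.82, 27.54 and 67.31 CPM in members against 109.9, 130.9 and 122.2 CPM in Aire-positive cells (log2 fold change -1.39, SE 0.23, edgeR adjusted p = 0.000853). Relb, a subunit of the non-canonical NF-kB dimer, had 90.92, 117 and 92.11 CPM against 237.6, 281.8 and 250.2 CPM (-1.54). Tnfrsf11a was also called lower than in microfold cells (-1.05), a call lost without CD40KO-Control (edgeR adjusted p = 0.0668) and without WT-Control (0.114), while against enterohepatic cells it did not pass (edgeR adjusted p = 0.0893). Cd40 had 32.09 CPM in the members of WT-Control, 3.442 CPM in WT-RANKL Ab and 5.314 CPM in CD40KO-Control. The level in WT-RANKL Ab is that of 1 UMI, so the size of this difference is uncertain. Cd40 is among the 6 lower genes, and the Cd40-deficient CD40KO-Control was a block of that fit.

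Self-antigens of the Aire lineage were in part still counted in members. Of 12 listed, 10 were tested, and 6 were lower and 1, Fabp9, higher than in Aire-positive cells. Against enterohepatic cells 1 was lower (Csn2, a call lost without WT-Control at an edgeR adjusted p of 0.0971), and against microfold cells 3 were lower (Crp, Csn2 and Csn3). The list summed to 1967 CPM in members and 2982, 2353 and 1929 CPM in Aire-positive, enterohepatic and microfold cells. Fezf2, a second regulator of tissue-restricted genes in mTECs, had 387.8, 251.3 and 340.1 CPM in 141 members, against 736.6, 823.1 and 531.6 CPM in Aire-positive cells (log2 fold change -1.34), a call lost without WT-Control (edgeR adjusted p = 0.0515). Csn2, a casein of milk, had 161.8, 10.33 and 278.1 CPM against 1546, 823.7 and 1678 CPM (-3.64, SE 0.41, edgeR adjusted p = 6.09e-05). Csn3 had no UMI in members, at least 8.75-fold lower than in Aire-positive cells by the floor of 3 counts over the members. Fabp9 had 1300, 10.33 and 1610 CPM in members, and its call was lost without WT-Control (edgeR adjusted p = 0.358), without CD40KO-Control (0.354) and in a fit of the 2 classes alone (0.132).

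All 8 tuft markers were higher in members than in Aire-positive cells, 1 was higher and 4 lower than in enterohepatic cells, and 6 were lower than in microfold cells. The markers stood at 580.2 CPM in members, 99.25 CPM in Aire-positive cells, 1070 CPM in enterohepatic cells and 2017 CPM in microfold cells. Dclk1, a kinase of tuft cells, had 50.81, 278.8 and 99.19 CPM in 27 members, while Pou2f3, a factor of tuft cells that is also expressed in suprabasal skin, had 65.52, 72.29 and 115.1 CPM in 70 members. cTEC markers were lower than in Aire-positive cells (6 of 6), with 206.5 to 986.8 CPM in the members of a library. Against enterohepatic cells Ly75 and Prss16 were lower, and against microfold cells only Prss16 was.

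Genes were also named by the size of the difference alone. Among genes past the threshold and changed the same way in each library, the largest differences to Aire-positive cells included Calml3, a calmodulin-like protein of stratified epithelium, at 839.7, 1160 and 1104 CPM in members against 7.933, 1.086 and 17.58 CPM (log2 fold change 6.59, SE 0.44, edgeR adjusted p = 2.11e-06). They also included Psapl1 (156.4, 261.6 and 200.2 CPM in members, 6.91), Sdr16c6, a retinol dehydrogenase (128.4, 106.7 and 139.9 CPM, 6.87), Adgrf4, an adhesion G protein-coupled receptor (61.51, 51.63 and 81.48 CPM, 6.78), the homeobox gene Irx2 (21.39, 51.63 and 33.66 CPM, 6.62) and Lypd3. Capns2 had 68.19, 48.19 and 40.74 CPM in members and 0.03479, 0 and 0 CPM in Aire-positive cells. Spink12 was named as well, but 79.9% of its UMIs in members lay in 1 cell. The 8 genes named at the other end, Il9, Cnmd, Speer4e, Amtn, Fgb, Car3, Rbp7 and Il22, had no UMI in members. The calls of Car3 and Rbp7 were lost without WT-Control (edgeR adjusted p = 0.0584 and 0.126), that of Fgb without WT-RANKL Ab (0.0601) and that of Il9 with DESeq2 (0.117). Il9 had 51.04, 3.801 and 123.3 CPM in Aire-positive cells, and Cnmd 33.71, 58.64 and 31.6 CPM. Against enterohepatic cells the largest differences were those of Sdr16c6, Endou, Cyp2b19, Capns2, Sdr16c5, Dsc1, Teddm3 and Spink12. Cyp2b19, a cytochrome of granular keratinocytes, had 93.6, 72.29 and 93.88 CPM in members and 0.4353, 0 and 1.352 CPM in enterohepatic cells (log2 fold change 7.07, SE 0.55, edgeR adjusted p = 2.75e-05). Genes lower than in enterohepatic cells were Rbp4, Glod5, Clca3b, Speer4c, Clps, Ms4a18, Cacna2d1 and Pamr1, of which Rbp4 and Glod5 had no UMI in members. Without WT-Control the calls of Rbp4 (edgeR adjusted p = 0.0873), Clca3b (0.0504) and Speer4c (0.0522) were lost, as was that of Rbp4 without CD40KO-Control (0.128) and that of Glod5 without WT-RANKL Ab (0.0791). Clps, pancreatic colipase, had 0, 0 and 5.314 CPM in members and 296.4, 4.013 and 58.81 CPM in enterohepatic cells. Against microfold cells, BC100530, Sdr16c5, Lypd5, Irx2, Aldh3b3, Sdr16c6, Them5 and Krt6b were named as higher. BC100530 held 75% of its UMIs in 1 member, and the calls of Them5 and Lypd5 were lost when a library was left out. The lower ones were Csn3, Cfp, Clca3b, Trdn, Rprm, Dnah5, Ccl22 and Mag, each with at most 2 UMIs in members. Of these 8, all but Csn3 lost the call when WT-Control was left out, with edgeR adjusted p from 0.0775 (Trdn) to 0.405 (Rprm).

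Members formed a range. After thinning every cell to 2000 UMIs and applying the rule again, 48 cells had 4 rule genes, 36 had 5, 78 had 6 or 7 and 10 had 8 to 10. Genes of antigen presentation summed to 20000 CPM with 4 rule genes (exact Poisson interval 19115 to 20915), 15833 CPM with 5 (14927 to 16780), 8250 CPM with 6 or 7 (7805 to 8713) and 6400 CPM with 8 to 10 (5339 to 7610). Genes of desmosomes and adhesion summed to 4271, 4597, 6795 and 6550 CPM in the same order. Antigen presentation was thus lower, and adhesion higher, where more rule genes were detected. The self-antigens of the Aire lineage summed to 2698, 2319, 1276 and 900 CPM. Cornified precursors followed no such order. They had 2917 CPM with 4 rule genes, 10569 with 5, 7801 with 6 or 7 and 4600 with 8 to 10, whereas over all UMIs, without thinning, they had 2094, 2823, 5694 and 6819 CPM. The top bin held 10 cells after thinning, and without thinning it held 50.

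**Figure D4:**
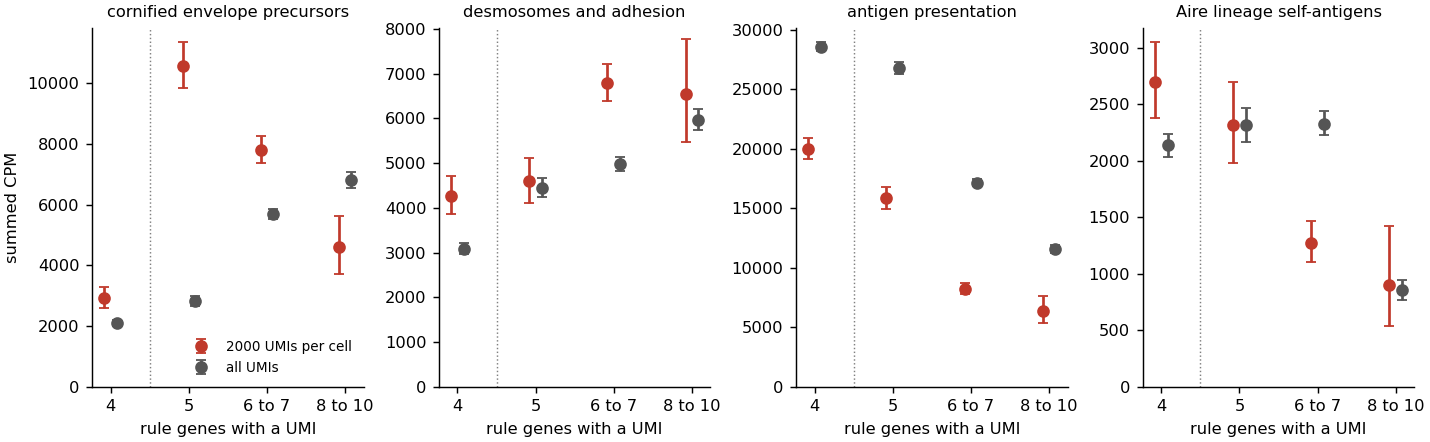
Summed CPM of 4 gene lists by the number of rule genes detected in a cell, with exact Poisson intervals, for cells thinned to 2000 UMIs (red) and with all UMIs (grey). Cells left of the dotted line lay outside the rule. Antigen presentation went from 20000 CPM with 4 rule genes to 6400 CPM with 8 to 10 in thinned cells.

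Between conditions, genes of antigen presentation were lower in the members of WT-RANKL Ab than in those of WT-Control. Of 3068 genes that reached 50 UMIs over the members of the pair, 3.81% were over 2-fold higher and 7.01% over 2-fold lower, on a log2 scale with 10 CPM added. The intervals beside these ratios are exact intervals of the ratio without the added CPM. TMM scaling gave 70 genes higher and 280 lower in place of 117 and 215. Of 9 such genes of antigen presentation 5 were over 2-fold lower, with a median log2 ratio of -1.11 beside -0.61 for the same genes in all other cells of the libraries. Cd74 had a log2 ratio of -1.11 (interval -1.19 to -1.02) and H2-Ab1 of -1.46 (-1.6 to -1.33), while in all other cells they had -0.61 and -0.375. None of 15 transcription factors and none of 10 lipid genes passed 2-fold in either direction. Most of all genes did not pass it either, so this sets these lists apart from no others. Of 13 cornified genes 3 were over 2-fold lower, with a median of -0.374 beside -1.21 in all other cells, and of 14 genes for cross-linking and proteolysis 6 were over 2-fold lower and 1 was over 2-fold higher, with a median of -0.787 beside -1.35. Dsp, Perp and Flg had log2 ratios of 0.0942, -0.128 and -0.0139, each with an interval that included 0. Krt1, by which members were chosen, had 446.6 CPM in WT-Control and 185.9 CPM in WT-RANKL Ab, a log2 ratio of -1.22 (-1.71 to -0.846). It was the 1 of 10 rule genes over 2-fold lower, and their median log2 ratio was -0.285.

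The genes named by the size of the ratio rested on few cells. The highest in WT-RANKL Ab were Krt15 (91.6% of its UMIs in 1 cell), Nrgn, Fxyd6, Lrmp, Wfdc2 (62.3% in 1 cell) and Gc, with log2 ratios of 3.74, 2.99, 2.8, 2.63, 2.51 and 2.5. Nrgn, Lrmp and Wfdc2 changed direction when members with at least 3 markers of another class were left out, and 3 of 5 tuft markers were over 2-fold higher in WT-RANKL Ab. The lowest were Fabp9 (3 UMIs against 972 in WT-Control), Reg3b (0 against 343, of which 95.3% in 1 cell), Ccl20, Mt4, Dppa3 and Prap1. The other 5 genes were detected in 8 to 28 members of WT-Control, with 21.7% to 65% of their UMIs in 1 cell, and in all other cells Ccl20 and Fabp9 had log2 ratios of -2.64 and -2.14.

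In CD40KO-Control members, 1 of the 10 rule genes, Krt1, was over 2-fold higher than in WT-Control members, and the median log2 ratio of the rule genes was 0.317. Members were chosen by the UMIs of these genes. Outside the rule, Flg, Lor and Hrnr had log2 ratios of 0.581, 0.239 and 0.536. Of 3762 genes, 2.31% were over 2-fold higher and 3.03% over 2-fold lower. Krt1 had 446.6 CPM in WT-Control and 1387 CPM in CD40KO-Control, a log2 ratio of 1.61 (1.45 to 1.82), and was detected in 50 and 52 members. Il1f6, Cst6, Rptn and Elovl4 had log2 ratios of 1.35, 1.26, 1.2 and 1.18, while in all other cells they had -0.147, -0.824, 0.0821 and 0.114. Cst6 held 28.5% of its UMIs in 1 cell of CD40KO-Control. Krt18 and Cebpa had log2 ratios of -0.998 and -0.9. In the lists, 3 of 14 cornified genes were over 2-fold higher and 1 was lower (median 0.24). Of 9 genes of antigen presentation 1 was lower (median -0.392). None of 17 transcription factors passed 2-fold, as was the case for most of all genes. Both conditions were set against the same WT-Control members, and the medians over all genes were 0.0515 and 0.0549. The genes named by size were Wfdc12, Tff1, Tff2, Gal, Upk3a and Mmp7 at the upper end, with log2 ratios from 3.21 to 4.42, and Reg3b, Ucn, Mup6, Gip, Ccl2 and Fabp6 at the lower end. The upper ones were detected in 4 to 10 members of CD40KO-Control, Upk3a with 94.4% of its UMIs in 1 cell, and all UMIs of Ucn lay in 1 member of WT-Control. Mmp7, Ccl2 and Fabp6 changed direction without the members that carried at least 3 markers of another class.

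**Figure D5:**
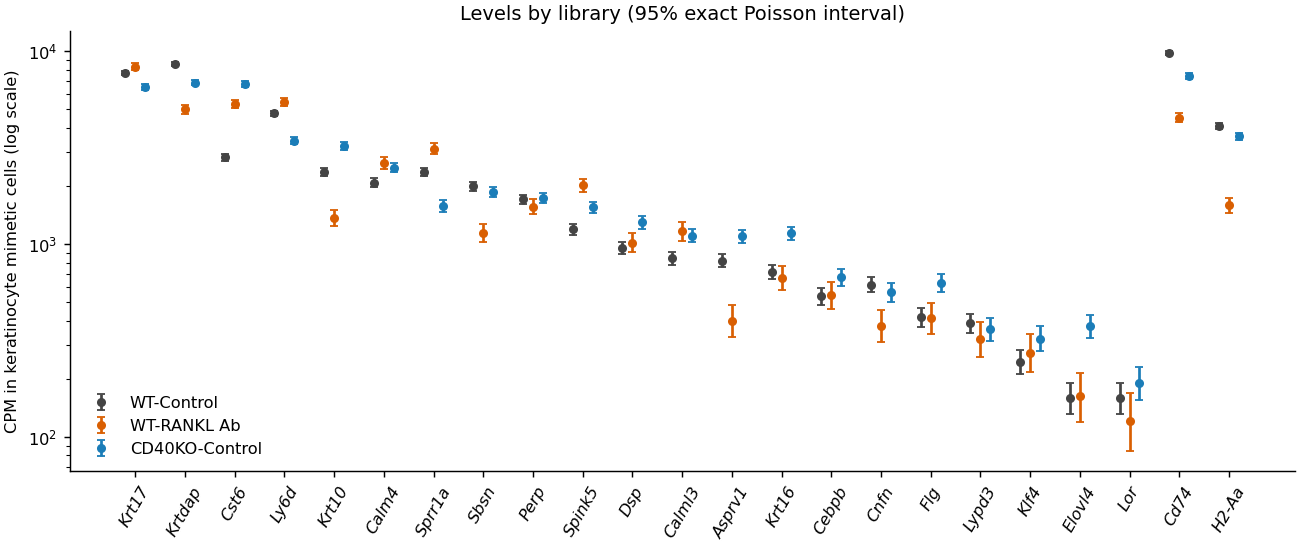
Levels of 23 genes in the members of WT-Control, WT-RANKL Ab and CD40KO-Control, in CPM on a log scale with exact Poisson intervals. Krtdap was at 8577, 4984 and 6844 CPM, and Cd74 at 9731, 4513 and 7413 CPM.

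The single member of CD40KO-RANKL Ab had 6115 UMIs, 2179 genes and 8 of the 10 rule genes. It held 67 UMIs of Krtdap, 33 of Krt10, 23 of Krt77, 222 of Krt17, 36 of Ly6d, 18 of Sprr1a, 19 of Dsp and 7 of Flg. Cd74 had 8 UMIs and H2-Ab1 had 1. It carried fewer than 3 markers of each of the tuft, enterohepatic, microfold, cTEC and T cell lists, and as 1 cell it gives no level for the condition.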

How the data were processed

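Each library was deposited as a matrix of UMI counts per gene and cell that the authors made with Cell Ranger from reads trimmed with Fastp and mapped to mm10. The matrix headers name Cell Ranger 5.0.1 and the submitters' processing notes name 5.1. The labels and the study's methods name different versions of the 10x kit. The counts are raw and were not corrected for free RNA.

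The members and the gene lists were chosen with earlier results of these data known. UMIs were summed per library and class. edgeR 4.0.16 (R 4.3.3, quasi-likelihood, TMM, filterByExpr, library as a block) tested classes with at least 20 cells in a library, which left out CD40KO-RANKL Ab, with Benjamini-Hochberg adjustment over all genes at 0.05. Rule and gate genes were left out of counts and names. Comparison classes held no members and no cell with a UMI of Mki67 or Top2a. Conditions, with 1 library each, were compared without a test, by exact Clopper-Pearson, Poisson and conditional intervals (scipy 1.17.1) that cover counting error only. No doublet caller was run. On data simulated for 10118 genes, the test recovered 91.8%, 89.7% and 92.8% of the genes changed by a log2 of 2 against Aire-positive, enterohepatic and microfold cells, and 36.9%, 31.1% and 33% of those changed by 1. The simulation had a fixed spread for all genes, the same mean profile in all classes and no library effect, and it changed no genes of low level. The real blocks were different conditions, so the recovery in these data can differ.

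Genes named in the text are list genes (the 6 with the highest CPM and any a sentence needed), the 8 largest differences in each direction per class comparison among genes past the threshold, changed the same way in each library and with at least 20 CPM in the higher class, and the 6 largest ratios in each direction per condition among genes with at least 50 UMIs. Predicted genes, Rik clones, mitochondrial and ribosomal protein genes were not named. Alternatives covered the rule, the depth, scaling, filters, DESeq2 1.42.0 in place of edgeR, and libraries left out in turn.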

Additional observations from a re-analysis of the deposited data

How the results depend on the processing

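No paired analysis was possible because each condition had 1 library, as far as conditions are compared, and classes were compared within libraries. Ratios of the members' share to WT-Control kept their side of 1 under all alternatives run, from 0.393 to 0.624 in WT-RANKL Ab, 1.04 to 1.349 in CD40KO-Control and 0.0386 to 0.152 in CD40KO-RANKL Ab. The shares themselves moved with the rule. With at least 4 rule genes they were 1.262% in WT-Control, 0.698% in WT-RANKL Ab and 1.618% in CD40KO-Control, with at least 6 they were 0.626% in WT-Control and 0.768% in CD40KO-Control, and without a limit on Aire 1.243% in WT-Control. With cells thinned to 2000 UMIs they were 0.569%, 0.321% and 0.768% in these 3 libraries. In members with fewer than 3 markers of each of the tuft, enterohepatic, microfold, cTEC and T cell lists they were 0.636%, 0.265% and 0.664%. This alternative was chosen after seeing the data.

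Leaving out a library gave 954 to 2115 genes higher and 885 to 2179 lower than in Aire-positive cells, 184 to 843 and 106 to 642 against enterohepatic cells, and 250 to 906 and 122 to 668 against microfold cells. The lowest counts were those without WT-Control (the cause was not tested). Without CD40KO-Control they were 1243 and 1316, 338 and 223, and 405 and 250. Without a filter on low counts, 1253 genes were lower than in enterohepatic cells and 1041 than in microfold cells. Over all pairs of a called gene and an alternative, the call was lost in 20, 63 and 57 pairs against the 3 classes and kept in 848, 680 and 634. Over 2-fold higher in WT-RANKL Ab members were 70 genes with TMM scaling and 40 without members that carried at least 3 markers of another class, and in CD40KO-Control members 139 by the mean over cells. Without those members, the log2 ratios were -0.34 for Nrgn, -0.14 for Lrmp and -0.69 for Wfdc2 in WT-RANKL Ab, and -0.54 for Mmp7, 0.0607 for Ccl2 and 0.28 for Fabp6 in CD40KO-Control. Why these differ was not tested. Without thinning, cells with 5, 6 or 7, and 8 to 10 rule genes had 2823, 5694 and 6819 CPM of cornified precursors, 4288, 11561 and 9321 CPM of cross-linking and proteolysis genes, and 26797, 17169 and 11619 CPM of antigen presentation genes, and cells with 6 or 7 had 2329 CPM of self-antigens of the Aire lineage.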

Other observations

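Cells that met the rule for rule genes and Ccl21a but carried an Aire UMI numbered 51. Their median depth was 12103 UMIs. They had 2508 CPM of Krtdap, 1006 CPM of Krt10, 486 CPM of Sprr1a and 18260 CPM of Cd74, where members had 7330, 2481, 2221 and 7944 CPM. Cst6 stood at 1259 CPM, against 4621 CPM in members.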
